A study of Mus musculus with 8 samples.

Results

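Claudins are membrane proteins with 4 spans that join neighbouring cells at tight junctions and set which ions and solutes pass between them. In the testis, tight junctions between Sertoli cells form the blood-testis barrier during the weeks after birth, and claudin-11 is the strand protein for which that barrier is best known. The 10 claudin genes described here are Cldn1, Cldn3, Cldn4, Cldn5, Cldn7, Cldn10, Cldn11, Cldn12, Cldn15 and Cldn23. They were taken by gene symbol from a deposited table of 23765 genes, with the best expressed transcript standing for each gene. The table holds 23 genes named Cldn followed by a number.

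The values come from RNA sequencing of 4 testis samples labelled Dio3KO and 4 wild-type testis samples, all from mice on the 129/SVJ background and at postnatal day 5. The product of Dio3 is a deiodinase that inactivates thyroid hormones, and the title of the study puts the question as regulation of neonatal testis genes by thyroid hormone. The labels give neither the construction of the Dio3 allele, nor whether animals were pooled, nor the parents' genotypes, and the extraction text names hypothalami although tissue and source are given as testis. For each group the authors deposited a mean in RPKM (reads per transcript length and library size), and a coefficient of variation (CV, the SD divided by the mean). Values of single samples were not used here and the sequencing depth is unknown.

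Dio3 itself was at 2.95 RPKM in Dio3KO-labelled testes and 0.52 RPKM in wild-type testes, so it rose, with an adjusted p of 0.0408 by the authors' deposited table. The level of Dio3 therefore does not check the label, and each direction below rests on it. In these whole testes, a change in the number of cells of a type and a change in RNA per cell cannot be told apart. Differences are given as log2 ratios of the means with 0.5 RPKM added to each, Dio3KO-labelled over wild type, with a standard error (SE) computed from the CVs. "Rose" and "fell" are kept for an adjusted p below 0.05 by the authors' deposited table.

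Most of the 10 claudins were higher in Dio3KO-labelled testes. By the authors' deposited table, 7 rose (Cldn3, Cldn5, Cldn7, Cldn10, Cldn11, Cldn12 and Cldn23), 1 fell (Cldn1) and 2 did not pass (Cldn4 and Cldn15). Over all 23765 genes, 20.9% passed the same threshold in either direction and 9.96% were called higher. The median log2 ratio of the 10 genes was 0.63, beside -0.02 over all genes in the table. Their summed mean level was 359.7 RPKM in Dio3KO-labelled testes and 126.2 RPKM in wild-type testes, 2.85 times as much, and most of it was Cldn11. Without Cldn11 the sums were 59.9 RPKM in Dio3KO-labelled testes and 42.5 RPKM in wild-type testes.

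**Figure D1:**
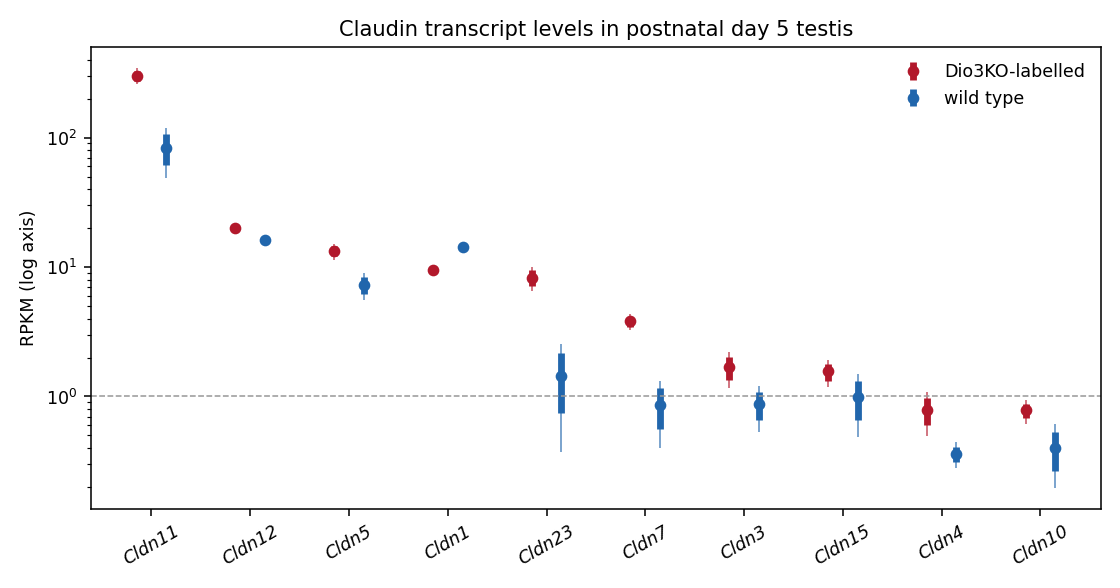
Mean RPKM (log axis) of the 10 claudins in Dio3KO-labelled (red, left) and wild-type (blue, right) testes, in order of the Dio3KO-labelled mean. Thick bars are the mean ± SD from the deposited CV, thin lines the range in which every single one of the 4 samples must lie, and the dashed line marks 1 RPKM. Cldn11 stands far above the others in both groups, and Cldn1 is the one member with a lower mean in Dio3KO-labelled testes.

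Although single values were not used, the mean and CV bound them. The CV reaches 2.00 in the table, which is the ceiling for 4 samples when the SD is taken over 1 less than their number, and 1 of 4 values can then lie at most 1.5 SD from the mean. By these bounds, with rounding allowed for, the 4 Dio3KO-labelled samples all lay above the 4 wild-type samples for Cldn4, Cldn5, Cldn7, Cldn10, Cldn11, Cldn12 and Cldn23, and all below them for Cldn1. The same held in the higher direction for 8.81% of all genes and in the lower direction for 9.03%. For Cldn3 and Cldn15 an overlap of the groups is possible.

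Cldn11, whose protein forms the tight junction strands between Sertoli cells and also those of myelin, was the most abundant claudin. Its mean was 299.9 RPKM in Dio3KO-labelled testes (CV 0.09) and 83.6 RPKM in wild-type testes (CV 0.27). No Dio3KO-labelled sample could lie below 257.1 RPKM and no wild-type sample above 118.1 RPKM. Cldn11 rose by 1.84 ± 0.20 on the log2 scale (SE), with an adjusted p of 0.003 by the authors' deposited table. Only 0.309% of the 15225 genes reaching 1 RPKM in either group had a higher log2 ratio. The level of Cldn11 exceeded that of 98.9% of all genes in Dio3KO-labelled testes and of 96.2% in wild-type testes. Its share of the RPKM summed over the 23 claudins was 82.8% in Dio3KO-labelled testes and 65.2% in wild-type testes.

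Cldn11 (ENSMUSG00000037625.7) lies on the plus strand at chr3:31149920-31164324 in the GENCODE M21 annotation of GRCm38, which is mm10, with 3 coding exons and no annotated gene overlapping it. The 250 bases before its start are shown because it is the risen gene with the highest level, beside the 250 bases before the outermost start of Cldn7, another riser, and 248 bases before that of Cldn1, which fell. They come from RefSeq for GRCm38.p6 and are written 5′ to 3′ on the gene's strand, and capitals mark matches to the motifs described next.
Cldn11, chr3:31149670-31149919, plus strand: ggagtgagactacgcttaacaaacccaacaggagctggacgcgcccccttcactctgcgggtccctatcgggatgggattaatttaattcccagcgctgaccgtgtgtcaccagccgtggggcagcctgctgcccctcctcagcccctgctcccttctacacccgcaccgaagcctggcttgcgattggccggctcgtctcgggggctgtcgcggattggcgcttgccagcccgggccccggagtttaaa
Cldn7, chr11:69964529-69964778, plus strand: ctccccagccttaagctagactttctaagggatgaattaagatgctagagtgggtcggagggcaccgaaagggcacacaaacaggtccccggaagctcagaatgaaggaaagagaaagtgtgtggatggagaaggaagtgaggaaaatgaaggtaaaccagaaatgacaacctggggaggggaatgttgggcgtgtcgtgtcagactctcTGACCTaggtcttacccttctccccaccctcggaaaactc
Cldn1, chr16:26371842-26372089, minus strand: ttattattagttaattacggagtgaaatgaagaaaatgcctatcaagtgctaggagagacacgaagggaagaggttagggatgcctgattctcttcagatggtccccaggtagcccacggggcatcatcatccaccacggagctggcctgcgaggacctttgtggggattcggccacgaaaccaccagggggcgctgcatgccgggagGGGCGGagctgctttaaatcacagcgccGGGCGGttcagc
The motifs searched on both strands were the thyroid hormone receptor half-site AGGTCA, its direct repeat with 4 bases between the copies, the androgen response element (AGAACA and TGTTCT with 3 bases between them), the GC box GGGCGG and the TATA box TATAAA. The Cldn11 window held none of them. The Cldn7 window shown held 1 half-site, on the minus strand, 40 bases before the start, and the Cldn1 window held a pair of GC boxes. A second window of Cldn7, before a start inside the gene, held a half-site on the plus strand, 31 bases before that start, and a GC box. The promoter table had 13 windows for 9 of the members, as some genes have several starts, and 32851 windows for 27025 genes in all. Cldn23, the member with the largest log2 ratio, had no window there and was not searched. The half-site was in 3 of the 13 windows (1 of Cldn4 and both of Cldn7), against 14.0% of all windows, and in at least 1 window of 2 of the 9 members, against 15.8% of all genes. The GC box was in 9 of the 13 windows, against 32.7% of all windows, and in 8 of the 9 members, against 35.4% of all genes. For Cldn12, 1 of these 8, the GC box lay after the outermost annotated start. The direct repeat, the androgen element and the TATA box were in 0 of the 13 windows. Of all windows, 0.0152% held the direct repeat, 0.00913% the androgen element and 12.4% the TATA box. A count of 0 in 13 windows therefore says little about these genes. A match is a match of letters, not a measured binding site.

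Cldn23 had the largest log2 ratio among the members. It encodes a claudin best known from intestinal and other barrier epithelia. Its mean was 8.28 RPKM in Dio3KO-labelled testes (CV 0.14) and 1.45 RPKM in wild-type testes (CV 0.49). It rose by 2.17 ± 0.28 on the log2 scale (SE), with an adjusted p of 0.0055 by the authors' deposited table. A Dio3KO-labelled sample could be no lower than 6.48 RPKM, and a wild-type sample could reach at most 2.54 RPKM, so the groups did not overlap. Cldn23 (ENSMUSG00000055976.6) is a single-exon coding gene on the minus strand at chr8:35824712-35826559.

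Among 1693 other genes with an adjusted p below 0.05 by the authors' deposited table and a level within 2-fold of Cldn23, those nearest to its log2 ratio over the 2 group means were Acsl6, Hrk, Tfr2, Frzb and Phospho1. Acsl6, an acyl-CoA synthetase, was at 5.65 RPKM in Dio3KO-labelled testes and 0.87 RPKM in wild-type testes. Frzb, a secreted Wnt antagonist, was at 8.49 RPKM in Dio3KO-labelled testes and 1.62 RPKM in wild-type testes. With only 2 group means, this likeness says no more than that the ratios were close.

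Cldn7, a claudin of basolateral epithelial membranes, was the third member with a difference above 2-fold once 0.5 RPKM was added to each mean. Its mean was 3.8 RPKM in Dio3KO-labelled testes (CV 0.09) and 0.86 RPKM in wild-type testes (CV 0.35). It rose by 1.66 ± 0.17 on the log2 scale (SE), with an adjusted p of 0.003 by the authors' deposited table. A second transcript of the gene had nearly the same means, 3.55 RPKM in Dio3KO-labelled testes and 0.76 RPKM in wild-type testes. Cldn7 (ENSMUSG00000018569.12) lies at chr11:69964779-69967885 on the plus strand. Of the 15225 genes reaching 1 RPKM in either group, 1.41% passed the authors' threshold and were at least 2-fold higher with 0.5 RPKM added. Cldn7, Cldn11 and Cldn23 were among them. Cldn7 reached 1 RPKM only through its Dio3KO-labelled mean, so its inclusion favours a higher value.

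**Figure D2:**
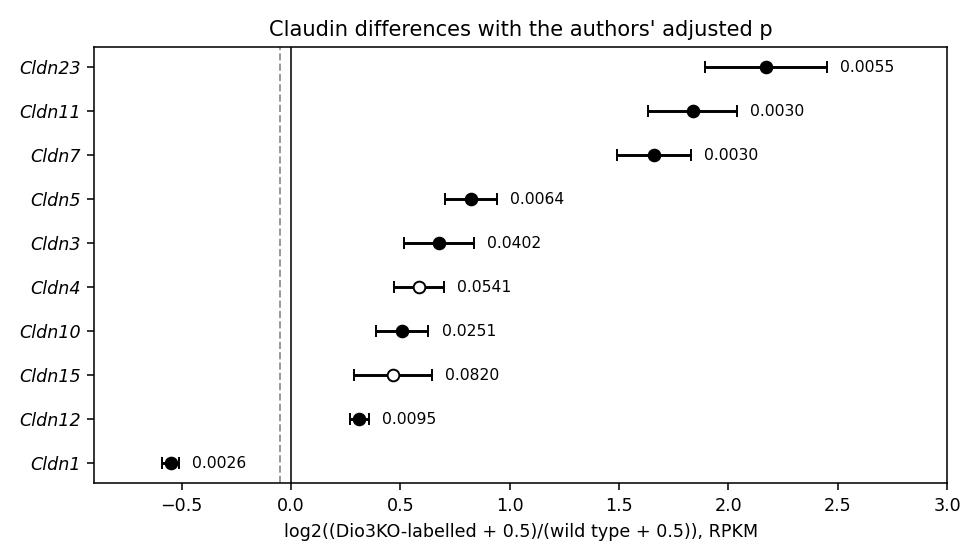
Log2 ratio of the group means, Dio3KO-labelled over wild type with 0.5 RPKM added (points, bars ± SE from the CVs), and beside each the adjusted p of the authors' deposited table. Filled points passed 0.05, and the dashed line marks the median of all genes tested (-0.05). Cldn23, Cldn11 and Cldn7 lie above 1 on the log2 scale, and Cldn1 alone lies below 0.

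Cldn5, the main claudin of blood vessel endothelium, had a mean of 13.3 RPKM in Dio3KO-labelled testes (CV 0.09) and 7.29 RPKM in wild-type testes (CV 0.15). It rose by 0.82 ± 0.12 on the log2 scale (SE), with an adjusted p of 0.0064 by the authors' deposited table. The lowest possible Dio3KO-labelled value, 11.4 RPKM, was above the highest possible wild-type value, 8.99 RPKM. The gene (ENSMUSG00000041378.2) has 1 exon, on the plus strand at chr16:18776847-18778262. Of 11 endothelial marker genes, 4 rose (Tek, Kdr, Emcn and Eng), 0 fell and 7 did not pass, while limma's moderated test, described below, called 6 of them higher and 1 lower (Plvap). Their summed level was 115.4 RPKM in Dio3KO-labelled testes and 98.5 RPKM in wild-type testes, 1.17 times as much, and their median log2 ratio was 0.30. Over all genes, 9.96% were called higher by the authors' table, and the moderated test called 18.6% of those tested higher and 23.2% lower. The part of endothelial RNA in the difference of Cldn5 was not tested.

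Cldn1, a claudin of the epidermal barrier and of many other epithelia, was the member that went the other way. Its mean was 9.53 RPKM in Dio3KO-labelled testes and 14.2 RPKM in wild-type testes, and the CV was 0.04 in both groups. It fell by 0.55 ± 0.04 on the log2 scale (SE), with an adjusted p of 0.0026 by the authors' deposited table. A Dio3KO-labelled sample could reach at most 10.2 RPKM, and a wild-type sample could be no lower than 13.2 RPKM. Of the genes reaching 1 RPKM in either group, 4.11% had a lower log2 ratio. Cldn1 (ENSMUSG00000022512.3) has 4 coding exons on the minus strand at chr16:26356642-26371841. Its neighbour Cldn16, 91293 bases away with no coding gene between them, was at 0.01 RPKM in both groups.

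Cldn12, a broadly expressed claudin that lacks the usual PDZ-binding end, changed least among the genes that rose. Its mean was 20.2 RPKM in Dio3KO-labelled testes (CV 0.05) and 16.1 RPKM in wild-type testes (CV 0.04). The rise of 0.31 ± 0.04 on the log2 scale (SE) had an adjusted p of 0.0095 by the authors' deposited table. The bounds leave no overlap, since a Dio3KO-labelled sample was at least at 18.5 RPKM and a wild-type sample at most at 17.2 RPKM. Its 4 deposited transcripts had nearly equal values, and since GENCODE M21 gives the gene a single coding exon they are not separate measurements. Cldn12 (ENSMUSG00000046798.14) lies on the minus strand at chr5:5489537-5514958.

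Cldn3 and Cldn4, both of which serve as receptors for Clostridium perfringens enterotoxin, are neighbours on chromosome 5, and both were low. Claudin-3 is also known in mouse Sertoli cells as an androgen-dependent component of newly formed junctions. Cldn3 was at 1.69 RPKM in Dio3KO-labelled testes (CV 0.20) and 0.87 RPKM in wild-type testes (CV 0.25), and rose by 0.68 ± 0.16 on the log2 scale (SE), with an adjusted p of 0.0402 by the authors' deposited table. Its bounds, 1.17 RPKM for the lowest Dio3KO-labelled and 1.21 RPKM for the highest wild-type sample, allow a slight overlap. Cldn4 was at 0.79 RPKM in Dio3KO-labelled testes (CV 0.24) and 0.36 RPKM in wild-type testes (CV 0.14). Its log2 ratio was 0.58 ± 0.11 (SE), and its adjusted p of 0.0541 by the authors' deposited table missed the threshold although the samples could not overlap.

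Cldn4 (ENSMUSG00000047501.3, minus strand, chr5:134945119-134946934) and Cldn3 (ENSMUSG00000070473.4, plus strand, chr5:134986214-134987472) are single-exon genes that point away from each other, 39279 bases apart, with no coding gene between them. Cldn13, on the far side of Cldn4, was at 0.17 RPKM in Dio3KO-labelled testes and 0.25 RPKM in wild-type testes, and did not pass. The coding sequences of Cldn3 and Cldn4 share the longest exact run found between the longest coding transcripts of any 2 of the 10 members, 35 bases, while the next longest was 18 bases. The run is shown in capitals within coding bases 181 to 275 of Cldn3 and 184 to 278 of Cldn4 (GENCODE M21), because a read lying wholly within it cannot be assigned to either gene. Only a read of at most 35 bases can lie wholly within it, and read length was not examined here.
Cldn3: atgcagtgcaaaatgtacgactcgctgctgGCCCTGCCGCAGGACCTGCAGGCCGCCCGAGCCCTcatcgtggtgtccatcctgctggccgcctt
Cldn4: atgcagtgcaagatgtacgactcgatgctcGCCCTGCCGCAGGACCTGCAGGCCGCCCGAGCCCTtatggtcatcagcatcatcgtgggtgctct
Cldn3 also overlaps Wbscr25, annotated on the opposite strand, and whether reads were counted by strand is not given in the sources used here.

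Cldn10 and Cldn15, which form ion-selective paracellular channels in kidney and intestine, were among the members with low levels. Cldn15 (ENSMUSG00000001739.14, plus strand, chr5:136966616-136975858) was at 1.56 RPKM in Dio3KO-labelled testes (CV 0.15) and 0.99 RPKM in wild-type testes (CV 0.33). Its log2 ratio of 0.47 ± 0.18 (SE) had an adjusted p of 0.082 by the authors' deposited table and did not pass. Cldn10 (ENSMUSG00000022132.15, plus strand, chr14:118787908-118875489) was at 0.78 RPKM in Dio3KO-labelled testes (CV 0.13) and 0.40 RPKM in wild-type testes (CV 0.33), and rose by 0.51 ± 0.12 on the log2 scale (SE), with an adjusted p of 0.0251 by the authors' deposited table. That call depends on the transcript. Of 6 Cldn10 transcripts, 2 had an adjusted p below 0.05 and the other 4 had values of 0.0668 or 0.0848, and all 6 had a higher mean in Dio3KO-labelled testes, with Dio3KO-labelled means of 0.37 to 0.78 RPKM and wild-type means of 0.21 to 0.40 RPKM.

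The order of the levels was largely shared by the groups. In Dio3KO-labelled testes it ran Cldn11, Cldn12, Cldn5, Cldn1, Cldn23, Cldn7, Cldn3, Cldn15, Cldn4 and Cldn10. There the mean ± SD ranges of Cldn1 and Cldn23, of Cldn3 and Cldn15, and of Cldn4 and Cldn10 overlapped. In wild-type testes it ran Cldn11, Cldn12, Cldn1, Cldn5, Cldn23, Cldn15, Cldn3, Cldn7, Cldn10 and Cldn4, with overlaps along the run from Cldn23 to Cldn7 and between Cldn10 and Cldn4. Cldn1 stood below Cldn5 in Dio3KO-labelled testes and above it in wild-type testes, with mean ± SD ranges that did not overlap in either group. The wild-type CV was the higher one for 7 of the 10 members and for 59.5% of the 15225 genes with at least 1 RPKM. The median CV of the members was 0.11 in Dio3KO-labelled testes and 0.26 in wild-type testes, beside 0.06 in Dio3KO-labelled testes and 0.08 in wild-type testes over those genes.

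A moderated limma test on the log2 scale, computed from the deposited means and CVs and adjusted over all 15225 genes reaching 1 RPKM in either group, covered 8 of the members. Of these 8, Cldn3, Cldn7 and Cldn15 reached 1 RPKM only through their Dio3KO-labelled mean, so their inclusion favours a higher value. It called 7 higher and 1 lower, where 18.6% of all genes tested were called higher and 23.2% lower. The limma adjusted p was 1.12e-05 for Cldn7, 1.8e-05 for Cldn1, 5.52e-05 for Cldn11 and 9.76e-05 for Cldn23. Cldn15, which had not passed the authors' threshold, had a limma adjusted p of 0.030. Cldn4 and Cldn10, below 1 RPKM in both groups, were tested only without the filter on low values, with limma adjusted p of 0.00346 for Cldn4 and 0.00888 for Cldn10.

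**Figure D3:**
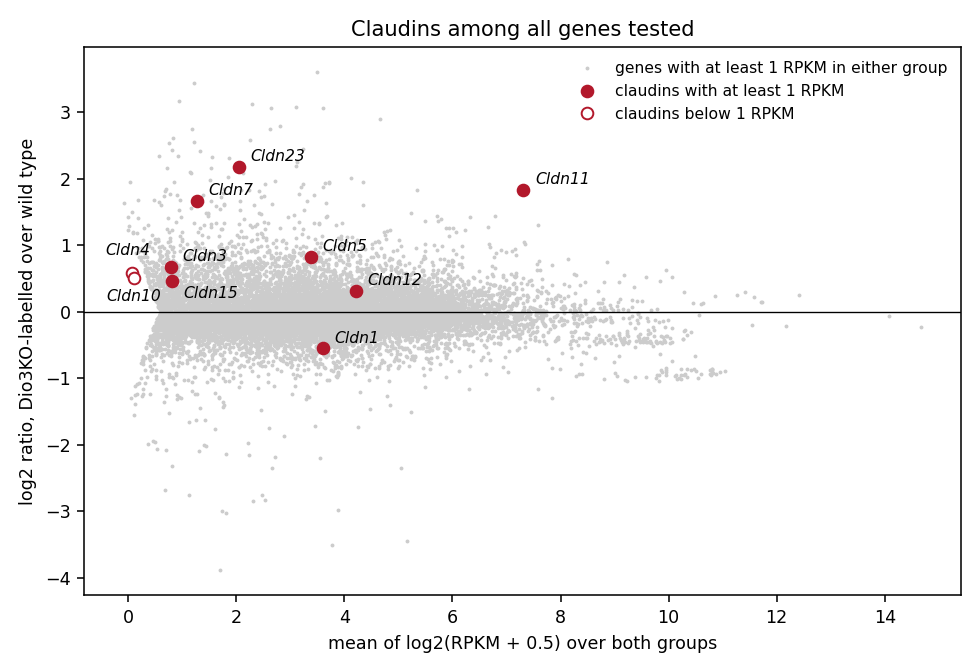
Log2 ratio, Dio3KO-labelled over wild type (vertical), against the mean of log2(RPKM + 0.5) over both groups (horizontal), for 15225 genes reaching 1 RPKM in either group (grey) and the claudins (red, open where below 1 RPKM in both groups). Cldn11 stands apart at high expression, while Cldn4 and Cldn10 lie at the lower edge of expression.

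The 13 remaining claudin genes were near the lower end of detection. Their highest means were 0.45 RPKM in Dio3KO-labelled testes and 0.34 RPKM in wild-type testes, both for Cldn9. By the Dio3KO-labelled mean the next were Cldn8, at 0.40 RPKM in Dio3KO-labelled testes and 0.14 RPKM in wild-type testes, and Cldn20, at 0.30 RPKM in Dio3KO-labelled testes and 0.29 RPKM in wild-type testes. By the wild-type mean they were Cldn22, at 0.29 RPKM in Dio3KO-labelled testes and 0.31 RPKM in wild-type testes, and Cldn2, at 0.19 RPKM in Dio3KO-labelled testes and 0.31 RPKM in wild-type testes. Of the 13, 0 passed by the authors' deposited table. The moderated limma test without the filter also called 0 of them, and 0 had an unadjusted p below 0.05 in it. Their summed level was 2.28 RPKM in Dio3KO-labelled testes and 2.14 RPKM in wild-type testes.

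Claudins work together with occludin-type proteins, adhesion molecules and the scaffolds that tie the junction to actin and polarity complexes. Of 33 such partner genes, 5 rose, 3 fell and 25 did not pass, and their median log2 ratio was 0.08. Over all 23765 genes, 9.96% were called higher and 20.9% passed in either direction. The moderated limma test called 18.6% of all genes tested higher and 23.2% lower. Of the 29 partners with at least 1 RPKM it called 10 higher and 5 lower. With ratios centred on the median of all genes tested it called 10 higher and 3 lower, and with groups rescaled to the same sum 15 higher and 3 lower. Among the scaffolds, Tjp1 (ZO-1) rose, at 43.9 RPKM in Dio3KO-labelled testes and 38.5 RPKM in wild-type testes, and Tjp3 did not pass, at 0.42 RPKM in Dio3KO-labelled testes and 0.32 RPKM in wild-type testes. Jam3, an adhesion molecule at junctions of the seminiferous epithelium, rose, at 82.5 RPKM in Dio3KO-labelled testes and 47.9 RPKM in wild-type testes, with an adjusted p of 0.0044 by the authors' deposited table.

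Esam, an adhesion molecule of endothelium, also rose (9.81 RPKM in Dio3KO-labelled and 6.56 RPKM in wild-type testes), as did Ildr2, a tricellular junction protein (31.3 RPKM in Dio3KO-labelled and 15.8 RPKM in wild-type testes). The polarity kinase gene Prkci rose as well, at 37.5 RPKM in Dio3KO-labelled testes and 33.1 RPKM in wild-type testes. Those that fell were the tricellular protein gene Marveld2 (6.12 RPKM in Dio3KO-labelled and 8.33 RPKM in wild-type testes) and the polarity scaffolds Patj (5.78 RPKM in Dio3KO-labelled and 7.35 RPKM in wild-type testes) and Pard3 (10.1 RPKM in Dio3KO-labelled and 12.3 RPKM in wild-type testes). Occludin itself did not pass. Ocln was at 34.5 RPKM in Dio3KO-labelled testes and 34.2 RPKM in wild-type testes, a log2 ratio of 0.01 ± 0.08 (SE) with an adjusted p of 0.7547 by the authors' deposited table.

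**Figure D4:**
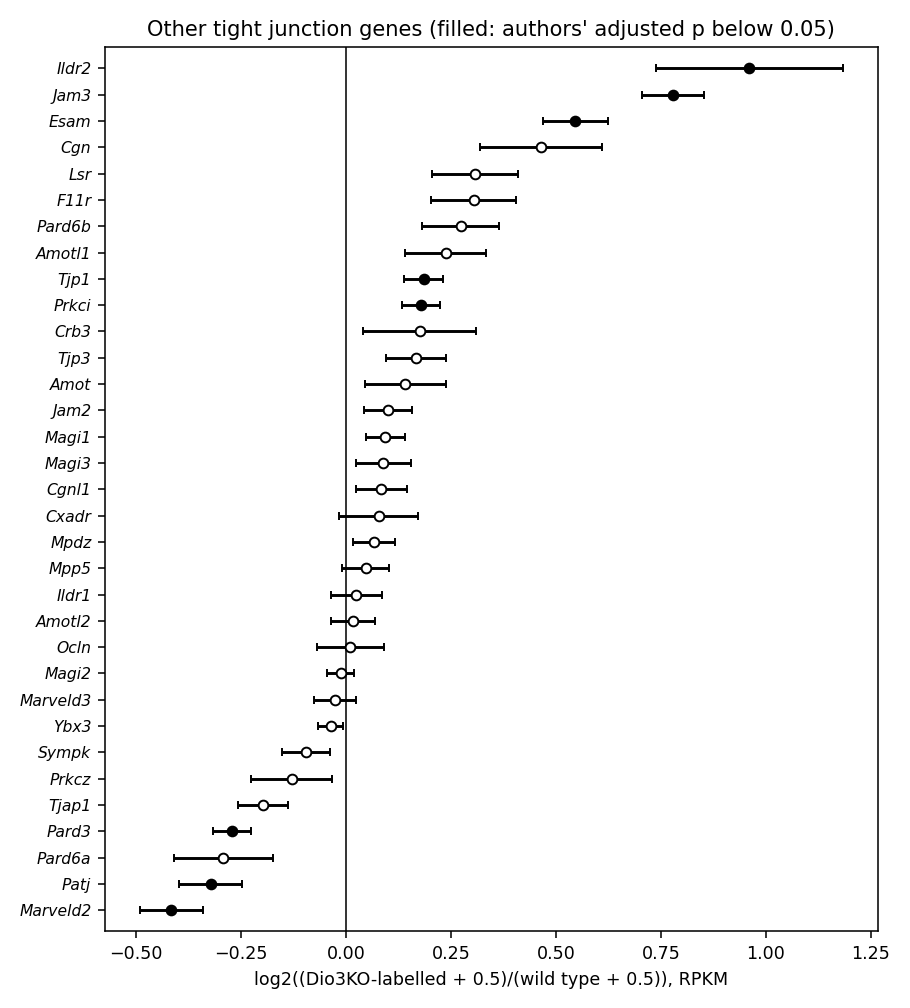
Log2 ratio, Dio3KO-labelled over wild type with 0.5 RPKM added (points, bars ± SE from the CVs), of 33 other tight junction genes. Filled points had an adjusted p below 0.05 by the authors' deposited table, 5 of them higher and 3 lower, and the ratio of Ocln lies at 0.01.

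Marker genes of the cell types in the sample were read beside the claudins. For each list, the shares over all 23765 genes were 9.96% called higher and 20.9% in either direction by the authors' table. Of 11 Sertoli cell markers, 3 rose (Wt1, Clu and Aard), 5 fell (Amh, Fshr, Gata4, Dhh and Nr5a1) and 3 did not pass. Their summed level was 2934 RPKM in Dio3KO-labelled testes and 2524 RPKM in wild-type testes, 1.16 times as much, while their median log2 ratio had the opposite sign, at -0.23. Within these sums, Clu alone was at 1232 RPKM in Dio3KO-labelled testes and 797.1 RPKM in wild-type testes. Cldn11 was 3.59 times as high in Dio3KO-labelled as in wild-type testes. Because Cldn11 is also a myelin gene, markers of oligodendrocytes were checked. Mog was at 0.04 RPKM in Dio3KO-labelled and 0.09 RPKM in wild-type testes, Mobp at 0.10 RPKM in both groups, and Opalin at 0.03 RPKM in Dio3KO-labelled testes and listed at 0 in wild-type testes. Of the 7 oligodendrocyte markers 1 fell (Mbp) and 0 rose, and of 8 markers of neurons and hypothalamus 1 fell and 0 rose, with a summed level of 3.12 RPKM in Dio3KO-labelled testes and 4.79 RPKM in wild-type testes.

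Cldn3, Cldn4 and Cldn7 are also known from duct epithelia of the male tract. Of 12 duct epithelium markers, 1 rose (Pax8), 1 fell (Esrp1) and 10 did not pass, with a summed level of 54.4 RPKM in Dio3KO-labelled testes and 67.4 RPKM in wild-type testes and a median log2 ratio of 0.02. Among the 10, Krt8 was at 2.83 RPKM in Dio3KO-labelled testes and 10.7 RPKM in wild-type testes. Its adjusted p by the authors' deposited table was listed as 0.05, at the threshold itself. Krt18 was at 3.83 RPKM in Dio3KO-labelled testes and 7.81 RPKM in wild-type testes, with an adjusted p of 0.1459 by the authors' deposited table. Limma's moderated test called Krt8 and Krt18 lower, with adjusted p of 0.00015 for Krt8 and 0.0098 for Krt18. Of the 11 duct epithelium markers reaching 1 RPKM in either group, that test called 1 higher and 3 lower. Pax8, the 1 higher, reached 1 RPKM only through its Dio3KO-labelled mean. Over all genes tested, the test called 18.6% higher and 23.2% lower. Epcam, which binds claudin-7, was at 12.3 RPKM in Dio3KO-labelled testes and 12.2 RPKM in wild-type testes. Of 3 mesothelial markers 0 passed by the authors' table, the moderated limma test without the filter called 0 (1 at an unadjusted p below 0.05), and their summed level was 17.9 RPKM in Dio3KO-labelled testes and 15.0 RPKM in wild-type testes. Macrophage markers were higher, with 8 of 9 rising and a summed level of 123.9 RPKM in Dio3KO-labelled testes and 58.6 RPKM in wild-type testes. Of 11 germ cell markers 1 fell and 0 rose, of 6 Leydig cell markers 2 rose and 0 fell, and of 5 markers of peritubular myoid cells 2 rose and 1 fell. Of markers reaching 1 RPKM in either group, the moderated limma test called 1 of 10 germ cell markers higher and 4 lower. It called 3 of 6 Leydig cell markers higher and 0 lower, and 2 of 5 peritubular myoid markers higher and 1 lower. Of 11 Sertoli cell markers it called 3 higher and 5 lower. All 8 macrophage markers tested were called higher, and Cd14 among them reached 1 RPKM only through its Dio3KO-labelled mean. Of 3 oligodendrocyte markers tested, 2 were called lower, as were 2 of 2 markers of neurons and hypothalamus, and 0 of either list were called higher. The part of any of these cell types in the claudin differences was not tested.

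**Figure D5:**
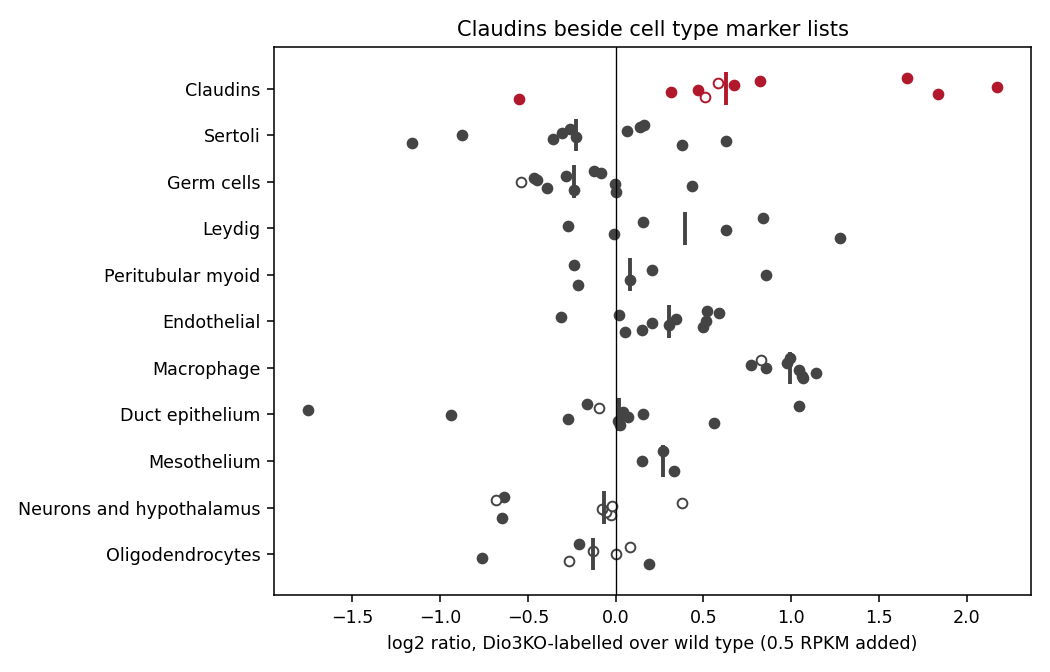
Log2 ratio, Dio3KO-labelled over wild type with 0.5 RPKM added, of each claudin (red) and of each gene in 10 cell type marker lists (grey), open where both means were below 1 RPKM. Vertical bars are medians, 0.63 for the claudins, 0.99 for macrophage, 0.30 for endothelial and -0.23 for Sertoli cell markers.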

How the data were processed

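The 8 testis samples from mice at postnatal day 5 (4 labelled Dio3KO and 4 wild type, by sample title) were compared. The authors deposited 1 table with the mean RPKM of each group per transcript, the CV of each group as a ratio of SD to mean, and an adjusted p-value of wild type against KO, per the file headers. FastQC, Novoalign 2.08 and mm10 are named in the submitters' processing notes. How reads were counted, with which annotation, whether by strand, and which test was used is not given in the sources used here. Repeated lines were dropped (147417 lines, 49139 transcripts), older symbols were merged into current ones (23765 genes), and the transcript with the highest average of both means stood for its gene. The table had 0 further columns of per-sample values.

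The members, lists and tests were chosen with earlier results of these data known. The authors' adjusted p was the main test, with a threshold of 0.05. Log2 ratios used a pseudocount of 0.5 RPKM, which understates changes of low genes, and SEs came from the CVs by the delta method. The moderated test shrank variances with limma 3.58.1 (squeezeVar, trend and robust, 6 residual degrees of freedom, a CV of 0.00 set to 0.0025) in R 4.3.3 over 15225 genes reaching 1 RPKM in either group, with Benjamini-Hochberg adjustment, and was tested on simulated data. Depth per sample is unknown. Named genes are all members, the 3 other claudins highest by Dio3KO-labelled mean, up to 5 partners in each direction with the smallest authors' p plus Ocln, Tjp1 and Tjp3, and 5 genes nearest in log2 ratio to the leading member. A few genes were left out of the lists after their values were seen and are not reported here. Protein sequences were not analysed here. Marker genes, Cldn2, Cldn13, Cldn16, Cldn22 and the promoters of Cldn11 and Cldn7 were chosen for the text after values were seen. Alternatives covered pseudocounts, filters, thresholds, scaling, shrinkage and choice of transcript.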

Additional observations from a re-analysis of the deposited data

How the results depend on the processing

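All 10 claudin log2 ratios kept their sign under every alternative of pseudocount (0.1 and 1 RPKM), scaling and transcript, and 8 of 60 such values moved by more than 1 SD between samples. By the authors' deposited table, 7 members were higher and 1 lower. Counting every transcript gave 12 higher, because several belong to 1 gene. Asking for a ratio of at least 1.5 as well gave 5 higher, and 0 lower since Cldn1 missed that limit. At a threshold of 0.01, 5 members were higher and 1 lower. With at least 5 RPKM in either group the moderated limma test called 4 members higher, as fewer members were tested. The other counts and the median of the claudins stayed within 1.5 times or 1 SD. For the tight junction partners, the authors' p at 0.05 gave 5 higher and 3 lower. A threshold of 0.01 on that p gave 2 higher and 0 lower, and one of 0.1 gave 8 higher and 4 lower. Testing the partners on the log2 scale with shrinkage, at 0.05, gave 10 higher and 5 lower. Leaving out the shrinkage gave 5 higher and 3 lower. With shrinkage kept, ratios centred on the median of all genes tested gave 10 higher and 3 lower. Groups rescaled to the same sum gave 15 higher and 3 lower. The cause of these shifts was not tested. No paired analysis was possible because the table gives group means, and for the same reason no replicate could be left out. Counting error cannot be given without depth, and levels below 1 RPKM are the least certain.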
